A study of Homo sapiens with 6 samples.

Results

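Ribosome biogenesis factors are the proteins that cut, modify and fold pre-rRNA and assemble it into ribosomal subunits. A list of 58 such genes was examined in PLC/PRF5 cells, a human hepatocellular carcinoma (HCC) line that carries integrated hepatitis B virus DNA. The genes were listed by symbol for their known roles, by a rule that uses no measured value but was written with earlier results of these data known, and 57 of the 58 were matched to one of the 60675 genes in the count tables. All 57 passed the filter on low counts, as did 18075 genes in all. The remaining gene, BOP1, was not analysed here.

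RNA-seq was carried out on 3 control libraries and 3 MTR4 KD libraries of this line, grown in DMEM with fetal bovine serum. MTR4 KD denotes depletion of the RNA helicase MTR4 by RNA interference, and the study describes short hairpin RNA expressed from lentivirus, switched on by doxycycline in its inducible form. The study describes its RNA-seq as cells with the inducible MTR4 hairpin before and after doxycycline, while the labels name the groups only as control and MTR4 KD. On that description the inducer differs between the groups too, so its effect, or that of an expressed hairpin in general, cannot be told apart from depletion of MTR4. A knockdown of this kind leaves part of the MTR4 mRNA in place, and whether the 3 libraries of a group came from separate cultures is not given, so the spread between them may be technical.

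MTR4 is the helicase that feeds RNA into the nuclear exosome, the complex that trims and degrades nuclear RNA from its 3′ end. In the nucleolus the pre-rRNA is first bound by the small subunit processome, of which UTP-A and UTP-B are early building blocks, is modified by box C/D and box H/ACA snoRNPs, and is then split into precursors of the small and the large subunit. MTR4 enters this pathway through adaptor proteins: UTP18, a UTP-B protein, brings it to the excised 5′ spacer, and NOP53 brings it to the 3′ end of 5.8S rRNA on the large subunit precursor, while WDR74 and the AAA ATPase NVL are tied to its release from that particle.

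The promoters of the listed genes were read first, since the proteins work together and their genes might share letters there. RefSeq promoters of build GRCh38.p14, each 250 bases before to 50 bases after the gene's start, were matched by symbol for 52 of the 58 genes. The E-box CACGTG, which reads the same on both strands, was present in 20 of these 52 promoters (38.5%), against 8.88% of 15843 protein-coding promoters and 7.43% of all 27305 promoters. The core CCGGAAG of sites bound by ETS family factors, searched on both strands, was present in 20 of 52 (38.5%), against 14.2% of protein-coding and 10.7% of all promoters. TATAAA, the core of the TATA box, was present on either strand in 2 of 52 (3.85%), against 9.63% and 12% respectively. The median GC content of the promoters was close to that of other protein-coding genes, at 62.5% and 62.7%. Both MTR4 adaptors and the gene with the smallest adjusted p described below, EBNA1BP2, are shown with their 250 bases before the start, written 5′ to 3′ on the strand of the gene, with matches to these motifs in capitals.
UTP18 (chr17:51260296-51260545, plus strand): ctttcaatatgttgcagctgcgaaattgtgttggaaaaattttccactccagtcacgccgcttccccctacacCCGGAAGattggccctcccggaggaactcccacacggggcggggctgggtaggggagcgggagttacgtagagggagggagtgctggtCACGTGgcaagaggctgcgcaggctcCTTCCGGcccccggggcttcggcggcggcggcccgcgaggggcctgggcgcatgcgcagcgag
NOP53 (chr19:47745296-47745545, plus strand): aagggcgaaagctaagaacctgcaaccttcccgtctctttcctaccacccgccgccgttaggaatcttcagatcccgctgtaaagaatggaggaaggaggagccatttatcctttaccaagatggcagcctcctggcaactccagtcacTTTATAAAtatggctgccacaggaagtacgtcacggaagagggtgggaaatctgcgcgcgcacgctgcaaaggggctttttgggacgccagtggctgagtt
EBNA1BP2 (chr1:43172571-43172820, minus strand): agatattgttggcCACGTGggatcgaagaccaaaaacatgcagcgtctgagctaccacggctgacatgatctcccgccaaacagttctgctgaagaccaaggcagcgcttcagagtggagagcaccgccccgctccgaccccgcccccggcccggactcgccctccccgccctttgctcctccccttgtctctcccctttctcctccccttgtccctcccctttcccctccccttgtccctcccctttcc
The printed stretch of UTP18 holds 1 E-box and 2 ETS cores in opposite orientation, and its whole promoter, with the 50 bases after the start, holds 2 E-boxes. NOP53 held neither, and its capitals mark 2 overlapping TATAAA matches, 1 on each strand. EBNA1BP2 held 1 E-box. A match is a description of the letters and not evidence of binding.

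Reads on genes ranged from 60686786 to 72708682 per library, and the least counted member, EMG1, still had 267 to 458 reads. The knockdown was visible in the mRNA of MTR4 itself, listed under the symbol MTREX (chr5:55307989-55425579, GRCh38), at 72.2, 87.4 and 74.4 CPM (the library's reads on a gene scaled to a common total of reads on genes) in control and 44.6, 48.8 and 44.1 CPM in MTR4 KD. All 3 MTR4 KD libraries lay below all 3 control libraries, with a log2 fold change of −0.77 ± 0.09 (SE) and an adjusted p of 0.00641 (edgeR quasi-likelihood test, Benjamini-Hochberg adjustment). The hepatocyte markers expected of the labelled line were present, with 14 of 14 at 1 CPM or more in every library. Their summed level was 38540 to 40309 CPM in control and 39156 to 41567 CPM in MTR4 KD. In the edgeR test 4 of the 14 were higher in MTR4 KD, against 1.48% of all tested genes. They are named here after their values were seen (ALB, APOA1, APOH and TTR, with log2 fold changes of 0.29 to 0.88). SERPINA1, AFP, TF and AHSG had negative values, from −0.43 to −0.08. With the library class described below as a covariate 5 markers were higher, FGB being added, against 9.43% of all tested genes. Only AHSG was then lower (1 of 14, against 10.8%). Of 10 markers of blood, endothelial and connective tissue cells, 4 were at 1 CPM or more and 4 were under 1 CPM in every library. None was at 0 in all of them, and the sum was 37.6 to 46.3 CPM in control and 32.3 to 39.7 CPM in MTR4 KD. Most of that sum was LYZ, at 27.9, 31.6 and 30.3 CPM in control and 24.4, 25.8 and 25.8 CPM in MTR4 KD. With the covariate LYZ was lower (−0.26, adjusted p = 0.0119, edgeR) and 0 of the 6 tested were higher. The libraries fell into 2 classes that did not follow the groups: reads with more than one alignment were 34.7% to 37.5% in controls 1 and 3 and MTR4 KD 3, and 14.8% to 18.2% in control 2 and MTR4 KD 1 and 2. Differences between libraries of 1 group exceeded sampling noise throughout, by a chi-square per degree of freedom of 4.83 to 8.17 within a class and 83.6 to 93.9 across classes. The list as a whole is therefore read with the condition alone, and again with the library class as a covariate. Log2 fold changes of single genes are from the fit with the condition alone unless the covariate is named.

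The listed genes were expressed well above the typical gene. Their median mean level was 70.9 CPM against 13.4 CPM over all tested genes, 55 of the 57 were above the median of tested genes, and 12 were in the top 10%. Together they took 0.642%, 0.732% and 0.633% of the reads on genes in control and 0.713%, 0.720% and 0.609% in MTR4 KD. Control 2 had a higher share than MTR4 KD 1 and 2, and controls 1 and 3 had higher shares than MTR4 KD 3.

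Levels between genes were compared as CPM per kb of the canonical transcript. In control they ran from 1.10 for EMG1, a methyltransferase of the small subunit rRNA, to 1044 for NPM1, the abundant nucleolar chaperone of the granular component. NPM1 was followed by NCL, which encodes nucleolin and stood at 275 CPM per kb, and then by NOP10 and FBL at 169 each and the MTR4 adaptor NOP53 at 120. By role, the median level in control was 275 CPM per kb for the 3 abundant nucleolar proteins, 76.4 for the 5 box H/ACA genes and 59.4 for the 4 box C/D genes. The 6 genes of ITS2 cleavage and late large subunit assembly had a median of 11.7 CPM per kb, from 3.67 for MDN1, the giant AAA ATPase that strips factors from the large subunit precursor, to 34.1 for the nuclease LAS1L. The snoRNP genes thus held more mRNA per length than the early processome genes, with medians of 26.6 for UTP-A and 11.2 for UTP-B. These levels depend on the transcript model: per kb of the union of a gene's exons, 31 of the 57 fell by more than 1.5-fold. On that scale NPM1 stood at 166, NCL at 121, FBL at 88.8, NOP10 at 54.4 and NOP53 at 34.0 CPM per kb, the last then below NOLC1 and NHP2 among others. The medians became 40.9 for box H/ACA, 29.5 for box C/D, 12.0 for UTP-A and 10.9 for UTP-B. Further, 50 pseudogenes carry the name of NPM1. EMG1 shares 55.5% of its exon bases with a gene on the other strand, so its counts and its place at the low end are uncertain. PWP2 (2.65 CPM per kb, 46.6% shared) and NOP9 (4.63 CPM per kb, 30.6% shared) also lay low, while MDN1, at 3.67, shares 0.344%.

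**Figure D1:**
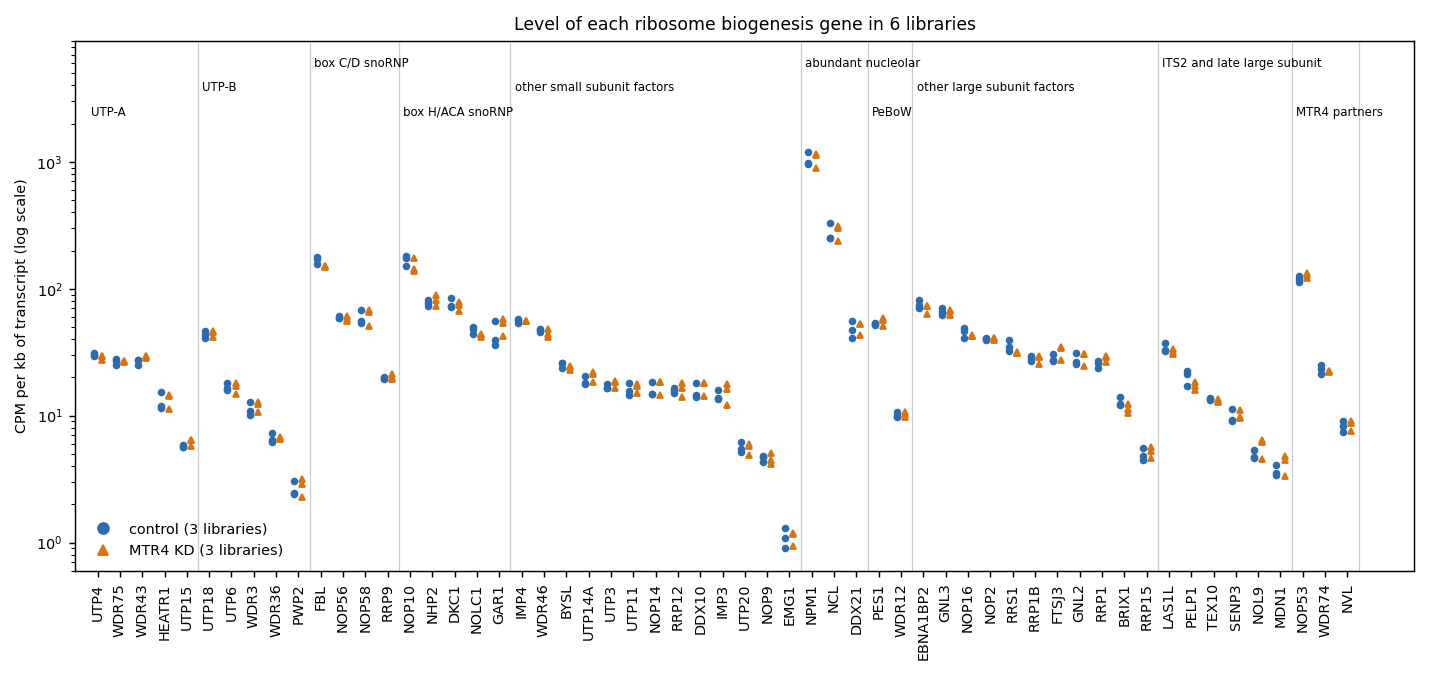
Level of each of the 57 genes in each of the 6 libraries, as CPM per kb of the canonical transcript on a log axis, with genes grouped by role and sorted by control mean. Blue circles are the 3 control and orange triangles the 3 MTR4 KD libraries, and the levels run from EMG1 (mean 1.10 in control) to NPM1 (mean 1044). Control and MTR4 KD overlap for 53 of the 57 genes. All MTR4 KD libraries lie above all control libraries for 1 gene (12.1% of all tested genes) and below for 3 (12.6%).

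The main question was whether depletion of MTR4 moved the mRNA of its partners in the pathway. None of the 57 genes was higher in MTR4 KD and none was lower at an adjusted p under 0.05 (edgeR quasi-likelihood test), where 1.48% of all tested genes were higher and 2.12% were lower. DESeq2 called 0 of the 57 (7.54% of all tested genes) and limma-voom called 0 (3.38%), and at an unadjusted p under 0.05 there was 1 of 57, FBL, against 18.8% of all genes. The log2 fold changes ran from −0.23 for PELP1 to 0.23 for GAR1, with a median of 0.03 against 0.01 over all tested genes, and 35 genes had a positive and 22 a negative value. A missed threshold does not show that the levels were alike, but the 95% intervals set bounds: they lay inside a 2-fold change in either direction for all 57 genes and inside a 1.5-fold change for 56, the exception being GAR1 with an upper bound of 0.66 on the log2 scale. In bulk libraries, fewer cells of a type and less RNA per cell cannot be told apart.

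**Figure D2:**
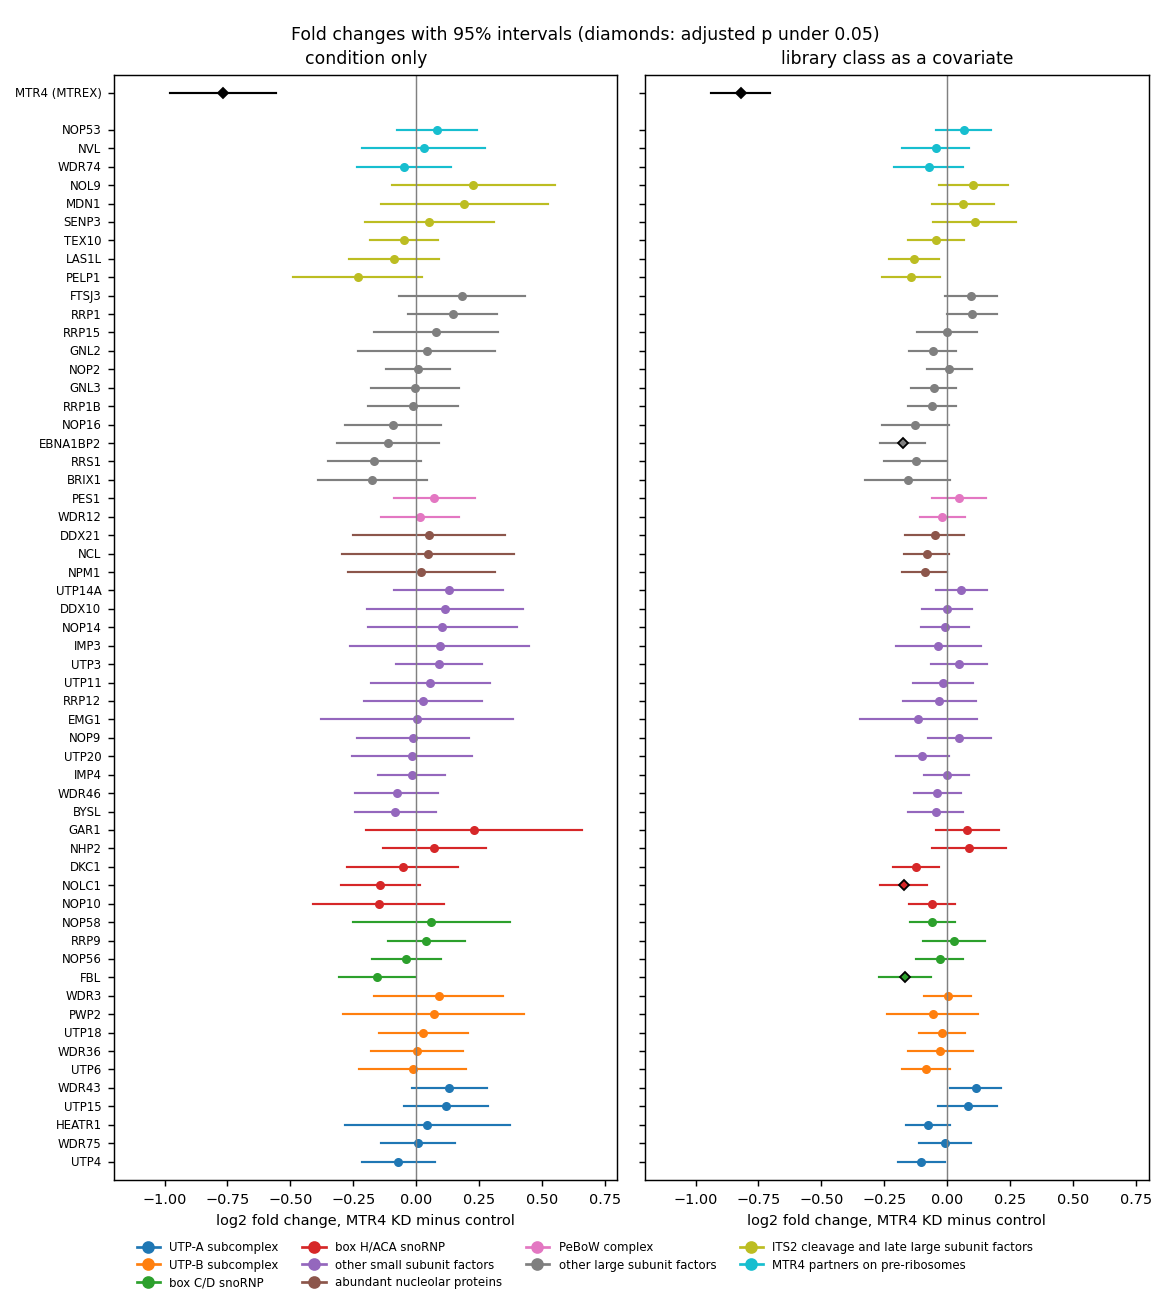
Log2 fold change of MTR4 KD minus control with its 95% interval for the 57 genes, colored by role, and for MTR4 (MTREX), from the edgeR test with the condition alone (left) and with the library class as a covariate (right). Diamonds have an adjusted p under 0.05: MTREX alone on the left, joined on the right by FBL, NOLC1 and EBNA1BP2.

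The proteins that bring MTR4 to pre-rRNA or act with it there had mRNA levels that overlapped between the groups. NOP53 (chr19:47745546-47757058) stood at 171, 181 and 191 CPM in control and 192, 200 and 182 CPM in MTR4 KD. MTR4 KD 1 and 2 lay above all 3 control libraries, but the groups overlapped, since MTR4 KD 3 lay below control 3. The log2 fold change was 0.08 ± 0.07 (SE), with an adjusted p of 0.566 (edgeR). UTP18 (chr17:51260546-51297933) stood at 80.7, 87.4 and 76.9 CPM in control and 87.2, 85.2 and 77.6 CPM in MTR4 KD. Its values followed the library class, with the 3 lowest in the libraries with more non-unique reads, and its log2 fold change was 0.03 ± 0.08 (95% interval −0.15 to 0.20). WDR74 stood at 25.8, 30.4 and 28.5 CPM in control and 27.6, 27.0 and 27.3 CPM in MTR4 KD. The 3 MTR4 KD libraries lay close together within the range of the control libraries, with a log2 fold change of −0.05 ± 0.08. NVL stood at 23.9, 26.3 and 21.7 CPM in control and 26.1, 25.5 and 21.9 CPM in MTR4 KD, again with overlap and a log2 fold change of 0.03 ± 0.10. Of exon bases, 16.7% in WDR74 were shared with another gene.

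In the UTP-A subcomplex, the first block to bind the nascent pre-rRNA, 0 of 5 genes passed the edgeR test. WDR43 had the highest value, at 96.2, 96.1 and 87.2 CPM in control and 103, 104 and 99.8 CPM in MTR4 KD. It was the only one of the 57 genes with all MTR4 KD libraries above all control libraries, a pattern shown by 12.1% of all tested genes, and its log2 fold change was 0.13 ± 0.06 (adjusted p = 0.322). UTP4, which is mutated in a childhood form of liver cirrhosis, had the lowest value, at 64.2, 68.5 and 65.3 CPM in control and 64.2, 64.9 and 59.6 CPM in MTR4 KD, a log2 fold change of −0.07 ± 0.06. The other members, HEATR1, UTP15 and WDR75, lay between them at 0.05, 0.12 and 0.01. In UTP-B, the β-propeller and repeat proteins that sit next to UTP18, 0 of 5 passed. WDR3 stood at 108, 127 and 102 CPM in control and 124, 129 and 106 CPM in MTR4 KD, the highest of the group at 0.09 ± 0.11. UTP6 stood at 70.9, 78.5 and 69.5 CPM in control and 78.0, 74.7 and 64.2 CPM in MTR4 KD, the lowest at −0.01 ± 0.09. Both groups of libraries overlapped for either gene. PWP2 and WDR36 had log2 fold changes of 0.07 and 0.00, and PWP2 shares 46.6% of its exon bases with a gene on the same strand, so that its counts are uncertain.

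Among box C/D snoRNP proteins, which carry out 2′-O-methylation of rRNA, the methyltransferase fibrillarin (FBL, chr19:39834458-39846379) was lowest. It stood at 177, 194 and 199 CPM in control (190 ± 11.6, SD, n = 3) and at 171, 171 and 168 CPM in MTR4 KD (170 ± 1.70, n = 3). Every MTR4 KD library lay below every control library, and the log2 fold change was −0.16 ± 0.06, with an adjusted p of 0.252 in edgeR. NOP58, a scaffold of the same particle, was highest at 111, 135 and 108 CPM in control and 132, 135 and 102 CPM in MTR4 KD. Its log2 fold change of 0.06 ± 0.13 was smaller than its difference of 0.35 between library classes. NOP56, its partner, and RRP9, which binds U3 snoRNA, had −0.04 and 0.04.

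Box H/ACA snoRNP proteins guide pseudouridylation, and NOP10, GAR1, NHP2 and the pseudouridine synthase DKC1 also belong to telomerase. GAR1 had the highest log2 fold change of all 57 genes and the widest interval: 36.4, 56.6 and 40.0 CPM in control and 58.3, 54.6 and 42.9 CPM in MTR4 KD. Control 2 reached the level of MTR4 KD 1 and 2, and MTR4 KD 3 lay near controls 1 and 3 but above both, by 0.17 log2 units on average. The log2 fold change was 0.23 ± 0.18 (95% interval −0.20 to 0.66). NOP10 ran the other way, at 91.6, 76.7 and 88.9 CPM in control and 70.5, 72.4 and 89.1 CPM in MTR4 KD, with −0.15 ± 0.11. NOLC1, a nucleolar chaperone of snoRNPs, stood at 178, 186 and 165 CPM in control and 164, 161 and 155 CPM in MTR4 KD. All of its MTR4 KD libraries lay below all control libraries, with a log2 fold change of −0.14 ± 0.07 (adjusted p = 0.309). DKC1 and NHP2 had −0.05 and 0.07.

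The 13 other small subunit factors spanned −0.08 for BYSL to 0.13 for UTP14A, and 0 of 13 passed the edgeR test. UTP14A, which activates the helicase that removes U3 snoRNA, stood at 45, 51.5 and 44.8 CPM in control and 53.4, 55 and 46 CPM in MTR4 KD. BYSL, an export and maturation factor of the small subunit, stood at 45, 40.4 and 44.7 CPM in control and 41.4, 39.2 and 42.2 CPM in MTR4 KD. Both overlapped between groups. Between them lay UTP3, UTP11, UTP20, WDR46, NOP9, NOP14, RRP12, EMG1, IMP3, IMP4 and DDX10. IMP4, a U3 snoRNP protein, varied little, with 131 to 140 CPM in control and 134 CPM in each MTR4 KD library.

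The abundant nucleolar proteins overlapped between groups, and all 3 were higher in the libraries with fewer non-unique reads in the class term described below. NPM1 (chr5:171387116-171410900) stood at 1289, 1573 and 1273 CPM in control and 1499, 1512 and 1182 CPM in MTR4 KD, a log2 fold change of 0.02 ± 0.12. NCL stood at 978, 1285 and 977 CPM in control and 1186, 1232 and 928 CPM in MTR4 KD. DDX21, an RNA helicase of the nucleolus, stood at 222, 261 and 191 CPM in control and 248, 248 and 203 CPM in MTR4 KD. In each of these 3 genes control 2 was the highest of the 6 libraries, and the fold changes of NCL and DDX21 were 0.05 each.

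For the large subunit, PES1 and WDR12 of the PeBoW complex, which is needed to process 5.8S and 28S rRNA, overlapped between groups. PES1 stood at 121, 117 and 119 CPM in control and 128, 132 and 116 CPM in MTR4 KD, and WDR12 at 78.4, 86.4 and 80.0 CPM and 85.7, 82.8 and 79.0 CPM respectively. Their log2 fold changes were 0.07 ± 0.07 and 0.02 ± 0.07. Of 11 other large subunit factors, 0 passed the edgeR test. FTSJ3, a 2′-O-methyltransferase, was highest at 95.1, 108 and 97.4 CPM in control and 120, 124 and 96.7 CPM in MTR4 KD. Only MTR4 KD 1 and 2 stood above control, and the log2 fold change was 0.18 ± 0.11. BRIX1, which acts in early large subunit assembly, was lowest at 22.1, 19.4 and 19.7 CPM in control and 19.5, 16.7 and 18 CPM in MTR4 KD, with −0.17 ± 0.09 and overlap at a single library. RRS1, which helps recruit the 5S RNP, had all 3 MTR4 KD libraries (53.8 to 55.0 CPM) below all control libraries (55.5 to 67.3 CPM). With FBL and NOLC1 it made 3 of 57 genes with that pattern, against 12.6% of all tested genes. EBNA1BP2, NOP2, NOP16, RRP1, RRP1B, RRP15, GNL2 and GNL3 lay between −0.11 and 0.15.

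The last role group cuts the spacer between 5.8S and 28S rRNA and remodels the late particle, and 0 of 6 genes passed the edgeR test. NOL9 was its highest, and PELP1 its lowest, member. NOL9, the polynucleotide kinase that acts with the nuclease LAS1L, stood at 31.2, 35.8 and 30.6 CPM in control and 41.4, 42.5 and 30.3 CPM in MTR4 KD. MTR4 KD 1 and 2 were the highest and MTR4 KD 3 the lowest of the 6 libraries, with a log2 fold change of 0.23 ± 0.14. PELP1, a scaffold of the SENP3 complex, stood at 108, 87.3 and 114 CPM in control and 81.2, 87.6 and 93.8 CPM in MTR4 KD. Control 2 fell among the MTR4 KD libraries, and the log2 fold change was −0.23 ± 0.11 (adjusted p = 0.308). LAS1L, TEX10, SENP3 and MDN1 had −0.09, −0.05, 0.05 and 0.19.

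More of these genes passed the test of the library class than that of the knockdown. With both terms in the edgeR model, 29 of the 57 genes were higher in the libraries with fewer non-unique reads (15.3% of all tested genes) and 3 were lower (16.2%), and the median difference between classes was 0.14 log2 units against 0.01 over all genes. Against the mean of the 3 control libraries, the median of the 57 genes was 0.10 in control 2, 0.07 in MTR4 KD 1 and 0.09 in MTR4 KD 2, and −0.04 in control 1, −0.06 in control 3 and −0.10 in MTR4 KD 3. Fewer non-unique reads were seen in 2 of 3 MTR4 KD and 1 of 3 control libraries, and the part of this split in the median with the condition alone was not tested beyond the fit with the covariate below. Across the 57 genes the class difference had a Pearson r of −0.334 with transcript GC content, and across 17569 tested genes it was −0.331. These are descriptions over genes that share the same 6 libraries, and the part of GC content in the class difference was not tested.

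**Figure D3:**
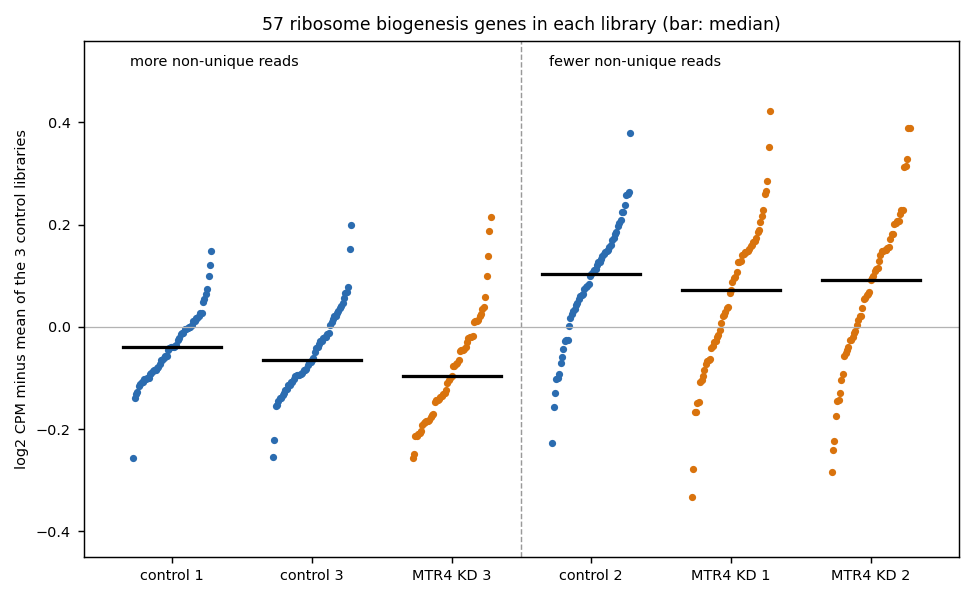
Log2 CPM of the 57 genes in each library minus their mean over the 3 control libraries, each point a gene, sorted within the library, and each bar the median. The 3 libraries with more non-unique reads (left) have medians of −0.10 to −0.04 and the 3 with fewer (right) 0.07 to 0.10, with control (blue) and MTR4 KD (orange) on both sides.

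With the library class as a covariate, the estimated biological coefficient of variation over all genes was 0.0573 in place of 0.175, and small shifts could pass the test. Then 3 of 57 genes were lower in MTR4 KD, against 10.8% of all tested genes, and 0 were higher, against 9.43%. The 3 were EBNA1BP2, which acts in early large subunit assembly (−0.18 ± 0.04, adjusted p = 0.00881, edgeR), NOLC1 (−0.17 ± 0.04, adjusted p = 0.0137) and FBL (−0.17 ± 0.05, adjusted p = 0.0253). EBNA1BP2 stood at 99.8 and 95.2 CPM in controls 1 and 3 against 85.5 CPM in MTR4 KD 3, and at 111 CPM in control 2 against 99.1 and 98.1 CPM in MTR4 KD 1 and 2. It was thus lower within each class although the groups overlapped. The median of the 57 genes was −0.04 with the covariate, against 0.01 for all genes, and every 95% interval lay inside a 1.5-fold change. For 20 of the 57 genes the log2 fold change had another sign than with the condition alone. UTP18 (−0.02) and NVL (−0.04) were among them, while NOP53 (0.07) and WDR74 (−0.07) kept their sign. GAR1 was at 0.08 with the covariate. The shares called were below those of all genes in both directions.

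The 3 calls rest on few libraries. Leaving out each library in turn with the covariate kept, EBNA1BP2 was called in 5 of 6 fits and lost without MTR4 KD 3, NOLC1 was called in 3 of 6 and FBL in 1 of 6. Without MTR4 KD 3 the calls were NOLC1, lower, and FTSJ3 and NOL9, higher, and without control 2 they were NHP2, higher, and EBNA1BP2 and PELP1, lower. NOP16 was also called lower without control 3, and PELP1 without MTR4 KD 2.

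Within the class with more non-unique reads, where MTR4 KD 3 was compared with controls 1 and 3, the median of the 57 genes was −0.04 log2 units, and within the other class, where MTR4 KD 1 and 2 were compared with control 2, it was −0.03. In both classes 28 genes (49.1%) were lower and 10 (17.5%) were higher, against 33.6% and 34.3% of all tested genes, and the remaining genes changed sign between classes. NOL9 was at −0.03 in the former class and 0.23 in the latter, GAR1 at 0.17 and 0.00, NHP2 at 0.25 and −0.08, and PELP1 at −0.24 and −0.05. WDR43 was higher in both, at 0.12 and 0.10. MTREX was lower in both, at −0.73 and −0.91. A class holds a single library of 1 group, so these differences carry no test.

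**Figure D4:**
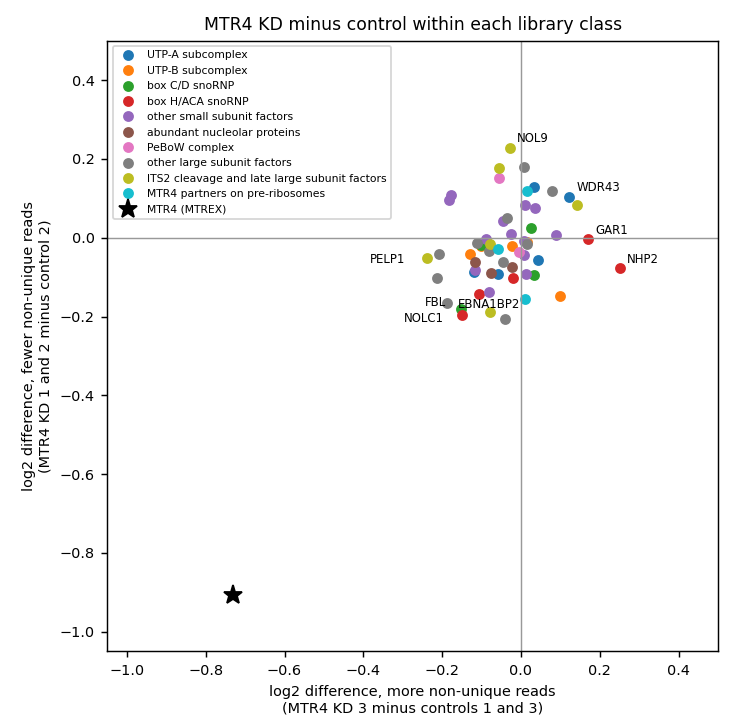
Log2 difference of MTR4 KD minus control within the libraries with more non-unique reads (horizontal) and with fewer (vertical), each point 1 of the 57 genes colored by role and the star MTR4 (MTREX). The 57 genes lie between −0.24 and 0.25 on the horizontal and between −0.21 and 0.23 on the vertical axis, 28 of them (49.1%, against 33.6% of all tested genes) lower in both classes, while MTREX lies at −0.73 and −0.91.

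Other shared features of the genes were set beside the values, with no test. The 7 genes that host a snoRNA in an intron, WDR43, NOP56, NOP58, DKC1, NCL, GNL3 and NOP53, had a median log2 fold change of 0.05 with the condition alone and −0.05 with the covariate, and the other 50 had 0.02 and −0.03. The 12 genes with a pseudogene named after them had 0.03 and −0.05, and the other 45 had 0.03 and −0.03. Reads that align equally to a gene and its pseudogene are non-unique and are not in the counts. In PWP2, NHP2, NOP9, EMG1, IMP3 and SENP3 over 25% of exon bases are shared with another gene, and their medians were 0.06 and 0.01.

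Other genes of the pathway were read from lists. Of 82 further ribosome biogenesis factors, 0 passed the edgeR test with the condition alone, 8 (9.76%, against 18.8% of all genes) had an unadjusted p under 0.05, 4 higher and 4 lower, and DESeq2 and limma-voom called 0. With the covariate 1 was higher (1.22%, against 9.43% of all genes) and 7 were lower (8.54%, against 10.8%). NOL8 (0.22 ± 0.06) rose, and among those that fell URB1 (−0.22 ± 0.04), SNU13 (−0.20 ± 0.05), a shared protein of box C/D particles and the spliceosome, and MRTO4 (−0.17 ± 0.04), a nuclear relative of a ribosomal stalk protein, were furthest. All 3 of the latter had every MTR4 KD library below every control library. That pattern was seen in 6 of the 82 genes, against 12.6% of all tested genes. The opposite pattern was seen in 7 of the 82, against 12.1%. Of 15 genes of RNA polymerase I transcription, which makes the pre-rRNA, 0 passed with the condition alone in edgeR, 3 (20%, against 18.8%) had an unadjusted p under 0.05, and DESeq2 called 1 and limma-voom 0. That gene was POLR1E, a polymerase subunit, at 57.8, 56.4 and 55.8 CPM in control and 66.7, 68.8 and 64.9 CPM in MTR4 KD (0.24 ± 0.06, edgeR adjusted p = 0.0709, DESeq2 adjusted p = 0.021). With the covariate 3 of 15 (20%, against 9.43% of all genes) were higher, TAF1C, POLR1E and UBTF, and 3 (20%, against 10.8%) were lower, TAF1A, POLR1H and TAF1B, from −0.38 to 0.26. The median log2 fold change with the covariate was −0.01 in both lists and −0.04 over the 57 genes.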

How the data were processed

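Total RNA of PLC/PRF5 cells was sequenced from 3 control and 3 MTR4 KD libraries. The deposited values are raw read counts per Ensembl gene, 1 table per library. The submitters' processing notes name HISAT2 2.1.0, HTSeq and DESeq2 and build GRCh38. The annotation release and the strand setting are not given in the sources used here, so antisense overlaps cannot be told apart. Rows that name no gene were left out of library sizes, among them the non-unique alignments (14.8% to 37.5%), ambiguous reads (5.89% to 8.29%), reads of low alignment quality (1.62% to 5.73%) and reads on no feature (2.51% to 3.10%).

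Symbols came from an Ensembl name table and positions from RefSeq GRCh38.p14. Transcript lengths, GC content, hosted snoRNAs and shared exon bases came from GENCODE on an earlier build than the GRCh38 of the counts. Genes were filtered with filterByExpr (at least 10 counts), scaled by TMM and tested with edgeR 4.0.16 in R 4.3.3 (quasi-likelihood test, adjusted p under 0.05). Standard errors are the absolute log2 fold change over the root of F, and 95% intervals use the same error. DESeq2 1.42.0, limma 3.58.1 (voom), other scalings and filters, a replicate block, the library class (over or under 30% non-unique) as a covariate and leaving out each library were alternatives. Within-class differences used a pseudocount of 0.01 CPM. An exact permutation test of 3 against 3 libraries cannot go below p = 0.1 and was not used. The code was run on simulated counts with the same variation for every gene and no library class effect, so that run does not cover the class split seen here.

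The members, lists and the library class were chosen with earlier results of these data known. Values in every library are given for NOP53, WDR74, NVL and UTP18, for members called with the condition alone, and for the highest and lowest of each role group; from the other pathway lists at most 3 called genes per direction are named. In the covariate fit the same limit was applied. NOLC1, EBNA1BP2, RRS1, NCL and IMP4 were named after their values were seen. Same-numbered libraries were checked for pairing and were not treated as pairs.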

Additional observations from a re-analysis of the deposited data

How the results depend on the processing

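With the condition alone, no member was called under any scaling, filter or test tried, and the smallest adjusted p of a member was 0.0664 to 0.465 with 1 library left out. MTREX stayed below control in every fit, at −0.89 to −0.68 with 1 library left out. Of the Pol I transcription genes, 1 was called with the filter of 1 CPM in 3 libraries and 1 with DESeq2. The library class as a covariate called 3 members lower, 8 other biogenesis factors and 6 Pol I genes. Chosen after seeing the data, the covariate with DESeq2 size factors called 3, 7 and 6, with no further scaling 3, 7 and 5, and with upper-quartile scaling, which added DKC1, 4, 8 and 6. With 1 library left out, with and without the covariate, members called higher ranged from 0 to 2, members called lower from 0 to 3, other factors from 0 to 8 and Pol I genes from 0 to 6. The cause was not tested. Without control 2 or MTR4 KD 3, 1 arm of a class is left empty, and the covariate fit then rests on the other class.

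The median of the members was 0.03 with the condition alone, −0.04 with the covariate, and −0.05 to 0.07 with 1 library left out. All lay inside the range of the library medians, −0.10 in MTR4 KD 3 to 0.10 in control 2, which follows the library class. Over all genes, 650 were called with the condition alone, 1363 with DESeq2, 3649 with the covariate and 137 to 803 with 1 library left out. Correlations of same-numbered libraries were −0.541, 0.628 and 0.638, so the numbers were not taken to pair the libraries. With the replicate block 857 genes and 0 members were called, the members' median was 0.02 and MTREX was at −0.76. Of 550 values of named members under alternatives, 9 passed the threshold that the main value missed. A further 20 moved by more than the spread between the control replicates, and 0 reversed a call. Every member had 267 or more reads in each library, and the standard error with the covariate was 0.11 for EMG1, the least counted, and 0.04 for NPM1.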
